A study of Mus musculus with 6 samples.

Results

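The Fc receptors described here are 6 mouse genes, Fcgr1, Fcgr3, Fcgr4, Fcer1g, Fcgr2b and Fcgrt, of 56092 gene symbols in the deposited tables. They were taken by gene symbol, with the transcript entries of a symbol added together. The rule used no threshold on measured values, but the set was drawn up with earlier results of these data known. All 6 passed the filter on low counts, which left 13528 genes to be tested.

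Fcγ receptors bind the constant part of IgG and let macrophages take up coated particles. Fcgr1, the high-affinity receptor, and Fcgr3 and Fcgr4, of low to intermediate affinity, signal through Fcer1g, the common γ chain, whose immunoreceptor tyrosine-based activation motif (ITAM) is phosphorylated by Src-family kinases and recruits the kinase Syk. Fcgr2b is the inhibitory receptor, with an inhibitory motif (ITIM) in its own tail that recruits the lipid phosphatase SHIP1. Fcgrt encodes the heavy chain of the neonatal receptor FcRn, which pairs with β2-microglobulin and returns endocytosed IgG and albumin from acidic endosomes to the surface instead of passing them to lysosomes. The balance between the activating receptors and Fcgr2b is known to set the threshold for a response to immune complexes.

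RNA was sequenced from RAW264.7 cells, a mouse macrophage-like line, stably transduced with a lentiviral vector. The shNC group carried a control vector, an empty vector by the sample labels and a non-targeting hairpin by the study's methods, and the shTrem2 group carried a hairpin against Trem2, a lipid-sensing receptor that signals through the ITAM adaptor Tyrobp. Each group had 3 libraries. Both groups were treated alike, with IL-4 (20 ng/mL, 24 hours) followed by freeze-thaw debris of TCMK-1 cells, a mouse kidney tubular line (24 hours). Both vectors also carried GFP, and the cells had been selected with puromycin. Which of the Trem2 hairpins was used for these libraries is not given in the sources used here, and no source states that the replicates were separate cultures, so the p-values measure only the spread between these libraries, which may be technical. No library came from cells without IL-4 or without debris, so each difference below is between the Trem2 hairpin and the control vector under that treatment.

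Between 15876061 and 19655158 estimated counts per library fell in named genes, so that the limit of 3 counts set by a count of 0 lay between 0.153 and 0.189 CPM (counts scaled to the named counts of the library), for counting error only. Trem2 itself had 116, 124 and 145 CPM with the control vector and 63.8, 62.5 and 79.2 CPM with the hairpin, a log2 fold change of -0.87 (SE 0.094; edgeR, adjusted p = 3.39e-06). On the length-scaled FPKM values its level was 178 ± 28.5 in shNC and 41.7 ± 4.14 in shTrem2 (SD, n = 3), a larger difference than by counts. The reason for the gap between these scales was not tested. Of 8 macrophage markers, 7 passed the filter. At an FDR under 0.05, 5 rose and 2 fell, and 57.4% of all genes tested passed that threshold. Among those that rose, Lyz2 went from 2834 ± 341 to 7271 ± 576 FPKM and Csf1r from 307 ± 20.6 to 489 ± 10.9 FPKM. Mrc1 rose at a low level, from 0.09 ± 0.052 to 0.687 ± 0.091 FPKM. Adgre1 fell from 67.6 ± 6.08 to 38.0 ± 9.02 FPKM and Itgam from 108 ± 0.68 to 62.2 ± 2.16 FPKM (SD, n = 3). The summed level of the list ran from 3698 to 4470 FPKM in shNC and from 8065 to 9251 FPKM in shTrem2, most of it Lyz2 alone. The part of these markers in the receptor differences was not tested. Arg1, the gene by which the labels describe these IL-4-treated cells, had between 1 and 3 counts in every library. Markers of other cell types that carry Fc receptors were at or near 0: the highest count of any B cell, mast cell, neutrophil or NK and T cell marker in a library was 8, for Cd79b. The 12 tubular epithelial markers reached at most 8 counts, for Lrp2, and summed to between 0.01 and 0.12 FPKM.

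The Fc receptor genes lie in 3 places on the mouse genome (build GRCm38, GENCODE M21). Fcgr2b (chr1:170958617-170976547, minus strand), Fcgr4 (chr1:171018920-171029761, plus strand), Fcgr3 (chr1:171051174-171064935, minus strand) and Fcer1g (chr1:171229572-171234365, minus strand) are neighbours on chromosome 1. Fcgr1 is at chr3:96282909-96293969 and Fcgrt at chr7:45092990-45103851, both on the minus strand. The submitters' processing notes name the later build GRCm39, so these coordinates place the genes in the annotation used here and not in the alignment.

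What separates activating from inhibitory signalling is written in short coding stretches, which are shown because the comparison below turns on them. The first is the ITAM of Fcer1g-201, at coding bases 193 to 237, which runs over exons 4 and 5 of 5 (chr1:171229889-171230072 with the intron between them, minus strand). The second is the ITIM of Fcgr2b-202, at coding bases 808 to 825 of 879, in exon 7 of 7 (chr1:170961071-170961088, minus strand). Capitals mark the codons of the tyrosines and of the hydrophobic residues that follow them.
Fcer1g ITAM: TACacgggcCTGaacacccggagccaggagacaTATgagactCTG
Fcgr2b ITIM: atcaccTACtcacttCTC
The 6-residue ITIM pattern is short, and the same search also matched coding sequence of Fcgr1, Fcgr4, Fcer1g and Fcgrt, so a match alone does not name an inhibitory motif.

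The Fcgr2b forms Fcgr2b-201 and Fcgr2b-202 differ in 1 coding exon. This exon, number 6 of 8 in Fcgr2b-201, has 141 bases (chr1:170963325-170963465, minus strand) and lengthens the cytoplasmic tail. Forms that carry it are known as b1 and those without it as b2. The b2 form is the one known to be taken up efficiently into coated pits and is the usual form of macrophages. The exon is shown because the transcript values below are split by it.
Fcgr2b alternative exon: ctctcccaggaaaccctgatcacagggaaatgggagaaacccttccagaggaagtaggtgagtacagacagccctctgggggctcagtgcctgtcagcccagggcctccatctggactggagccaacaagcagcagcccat

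Fcgr2b and Fcgr3 are close copies in the part that binds IgG. Of the 31-base windows of the main Fcgr3 transcript (1347 nt), 17.7% also occur in Fcgr2b, and of the 100-base windows 3.53% do. The reads were sequenced as pairs of 150 bases. The longest identical coding run has 129 bases, from coding base 278 of Fcgr2b-202 (exons 3 and 4, chr1:170966674-170968081 with the intron) and from coding base 263 of that Fcgr3 transcript (exons 3 and 4, chr1:171054167-171057792 with the intron), both on the minus strand. It is shorter than an untrimmed read, and it is shown as the stretch in which an activating and the inhibitory receptor cannot be told apart by sequence.
Run shared by Fcgr2b and Fcgr3: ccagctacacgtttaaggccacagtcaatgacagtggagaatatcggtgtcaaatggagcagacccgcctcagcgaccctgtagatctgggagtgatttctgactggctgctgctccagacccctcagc
Fcgr1, Fcer1g and Fcgrt share no 31-base window with another gene, and Fcgr4 shares 1.31% of its windows.

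Of the 6 genes, 4 rose in shTrem2, 1 fell and 1 did not pass the test. Fcgr1, Fcgr3, Fcer1g and Fcgr2b were higher at an FDR under 0.05 and Fcgrt was lower, so 5 of 6 were called, against 57.4% of all genes tested (28.8% higher and 28.6% lower). A share this close to the background is not a result about these receptors as a set. Under the study's criteria for differentially expressed genes (DEGs), an FDR under 0.05 and a fold change over 1.5, 3 of 6 were DEGs, 2 higher and 1 lower, against 21.8% of all genes (9.46% higher and 12.4% lower). The groups did not overlap in CPM for 5 of the 6 genes, which was true of 63.5% of the genes tested. In bulk RNA, a change in the number of cells that express a gene and a change in the RNA per cell cannot be told apart.

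**Figure D1:**
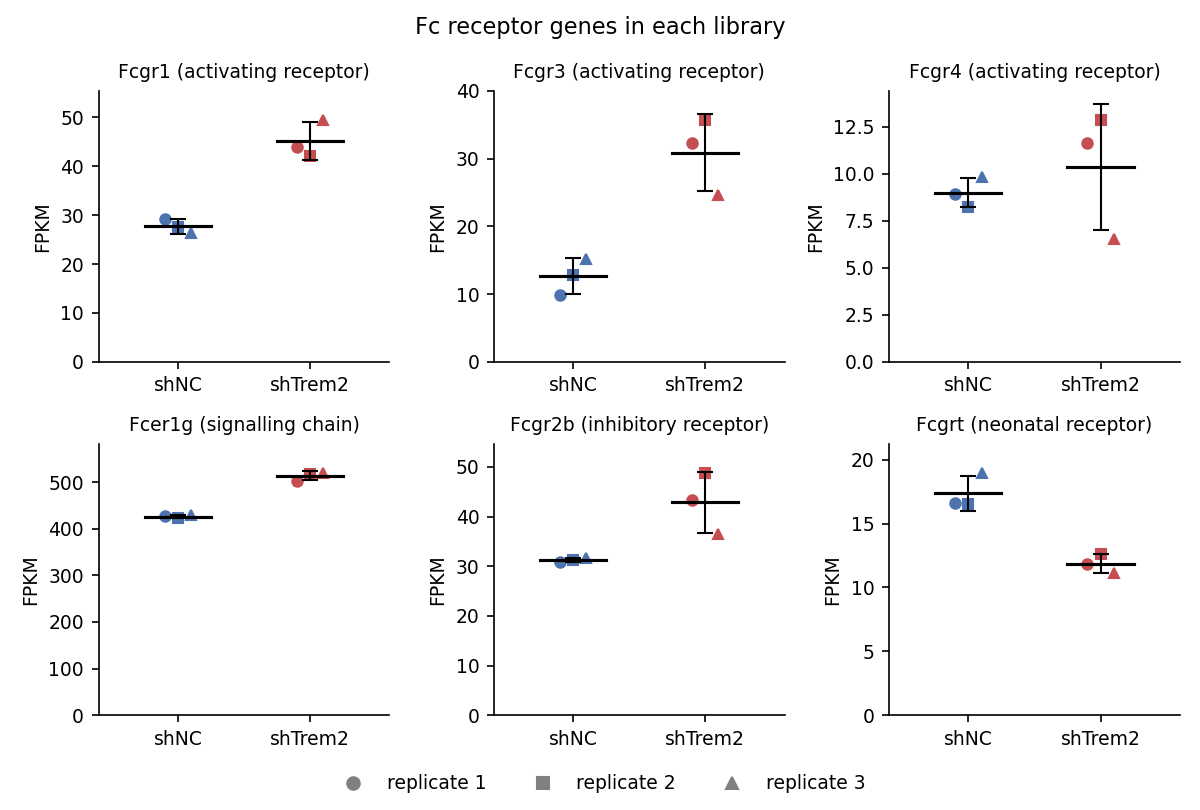
FPKM (y axes, from 0) of the 6 Fc receptor genes in the 3 shNC (blue) and 3 shTrem2 (red) libraries, with the marker shape giving the replicate and black lines the mean and SD. The groups separate for every gene except Fcgr4, where shTrem2 replicate 3 is the lowest library of all 6.

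Among the activating receptors, Fcgr1 was the most abundant. Its level was 29.2, 27.6 and 26.3 FPKM in the shNC libraries and 43.9, 42.1 and 49.5 FPKM in the shTrem2 libraries. Every shTrem2 library lay above every shNC library. By counts the change was 0.85 on the log2 scale (SE 0.066; edgeR, adjusted p = 1.52e-07), which is 1.81-fold, from 937 ± 86.7 counts to 1870 ± 113 counts (SD, n = 3). It stayed between 0.68 and 0.90 in every alternative listed in the processing account.

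Fcgr3, the low-affinity activating receptor, changed most. It was at 9.90, 12.9 and 15.3 FPKM in shNC and at 32.3, 35.7 and 24.6 FPKM in shTrem2. The lowest shTrem2 library was above the highest shNC library. The log2 fold change was 1.32 (SE 0.15; edgeR, adjusted p = 6.43e-06), or 2.49-fold, and 97.9% of the genes tested had a smaller signed change. Its replicates spread more than those of Fcgr1, and leaving out single libraries or changing the test kept it between 1.16 and 1.49. Nearly all of its estimated counts were in 2 coding transcripts, and both were higher. The main one (1347 nt) went from 10.8 ± 2.22 to 26.4 ± 4.99 CPM and the other (1324 nt) from 2.14 ± 0.56 to 5.20 ± 1.51 CPM (SD, n = 3).

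Fcgr4, the third activating receptor, did not pass the test. Its level was 8.94, 8.25 and 9.82 FPKM in shNC and 11.6, 12.9 and 6.55 FPKM in shTrem2. Of the shTrem2 libraries, replicates 1 and 2 lay above all shNC libraries and replicate 3 below all of them. The log2 fold change was 0.24 (SE 0.20; edgeR, adjusted p = 0.338), on 120 to 235 counts per library. Without shTrem2 replicate 3 it was 0.48 (edgeR, adjusted p = 0.00695), so a single library decides this call. That library was also the lowest of its group for Fcgr3, Fcgr2b and Fcgrt and the highest for Fcgr1. Its CPM, relative to the mean of the other 2 shTrem2 libraries, was -0.92 on the log2 scale for Fcgr4, -0.48 for Fcgr3 and 0.11 for Fcgr1.

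Fcer1g, the γ chain that the 3 activating receptors need to signal and in most cells to reach the surface, was by far the most abundant gene of the set. Its level was 427, 423 and 429 FPKM in shNC and 502, 518 and 520 FPKM in shTrem2. The groups were well apart and each was tight. The change was small, 0.32 on the log2 scale (SE 0.043; edgeR, adjusted p = 2.64e-05) or 1.25-fold, and it did not reach the fold criterion for a DEG. Per unit of summed activating receptor FPKM there was less γ chain in shTrem2, 5.96 ± 0.42 against 8.64 ± 0.27 in shNC (SD, n = 3), with no overlap between groups and no test applied to this ratio.

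Fcgr2b, the inhibitory receptor, rose less than Fcgr1 and Fcgr3 by the fitted values, a difference between genes that was not tested. It was at 30.9, 31.2 and 31.7 FPKM in shNC and at 43.3, 48.8 and 36.5 FPKM in shTrem2. The shNC libraries were almost equal, and the shTrem2 libraries were spread out but all higher. The log2 fold change was 0.42 (SE 0.096; edgeR, adjusted p = 0.00193), or 1.34-fold, under the fold criterion for a DEG. In the alternatives it ran from 0.31 to 0.53. These gene-level values also count transcripts without coding sequence. Of the gene's mean CPM in shNC, Fcgr2b-205 held 11.9%, Fcgr2b-206 held 6.79% and Fcgr2b-207 held 0.246%. Their shares in shTrem2 were 8.63%, 3.13% and 0.902%. The change of the coding transcripts alone was not tested.

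Fcgrt, the FcRn heavy chain, was the only one of the 6 genes that fell. It was at 16.6, 16.5 and 19.0 FPKM in shNC and at 11.9, 12.7 and 11.1 FPKM in shTrem2. The highest shTrem2 library was below the lowest shNC library. The log2 fold change was -0.61 (SE 0.11; edgeR, adjusted p = 3.75e-04), a 1.53-fold decrease that lies close to the fold criterion. It was under 1.5-fold, with an FDR still under 0.05, without shNC replicate 3, without shTrem2 replicate 3, with an offset for effective length and in both fits to FPKM. The difference was carried by the main coding transcript, Fcgrt-201, which went from 19.0 ± 1.81 to 10.9 ± 1.97 CPM. The minor coding transcript Fcgrt-203 was at 2.46 ± 0.86 and 2.85 ± 0.99 CPM (SD, n = 3), a difference within the spread of the replicates. B2m, which encodes the β2-microglobulin chain of FcRn and of class I molecules, also fell, by 0.34 on the log2 scale (SE 0.046; edgeR, adjusted p = 2.77e-05). Fcgrt amounted to 0.766% ± 0.057 of the B2m FPKM in shNC and 0.679% ± 0.023 in shTrem2 (SD, n = 3).

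**Figure D2:**
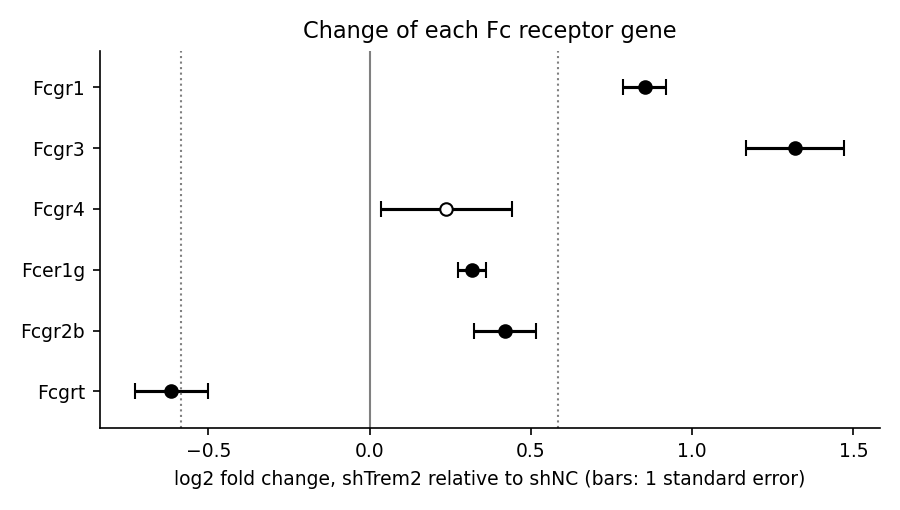
Log2 fold change of each Fc receptor gene in shTrem2 relative to shNC from edgeR (x axis), with 1 standard error. Filled points passed an FDR under 0.05, the open point (Fcgr4) did not, and dotted lines mark a 1.5-fold change, which Fcgr1 and Fcgr3 exceed upwards and Fcgrt just exceeds downwards.

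Since FPKM is scaled by length, the genes can be ranked within a group. In shNC the order of levels was Fcer1g, Fcgr2b, Fcgr1, Fcgrt, Fcgr3 and Fcgr4, and no neighbours in it overlapped over the 3 libraries. In shTrem2 it was Fcer1g, Fcgr1, Fcgr2b, Fcgr3, Fcgrt and Fcgr4. There Fcgr1 and Fcgr2b overlapped, and so did Fcgrt and Fcgr4, so these neighbours do not differ beyond their spread. Fcgr2b was thus above each activating receptor in every shNC library but not in every shTrem2 library, and Fcgr3 was below Fcgrt in shNC and above it in shTrem2.

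The question of activating against inhibitory receptors was addressed by the FPKM of Fcgr1, Fcgr3 and Fcgr4 added together and divided by that of Fcgr2b. This ratio was 1.55, 1.56 and 1.62 in the shNC libraries and 2.03, 1.86 and 2.21 in the shTrem2 libraries. The groups did not overlap, and the mean log2 ratio was higher by 0.36 in shTrem2, from 0.66 ± 0.032 to 1.02 ± 0.13 (SD, n = 3). No p-value is given for a score over these genes. The Fcgr2b level in the ratio includes its transcripts without coding sequence, and a ratio limited to coding transcripts was not tested. The direction depended on the receptor. With Fcgr3 alone over Fcgr2b the log2 difference was 0.85 and the groups did not overlap. With Fcgr1 alone it was 0.26 and with Fcgr4 alone -0.30, and for both the groups overlapped. Without Fcgr3, the gene that shares sequence with Fcgr2b, the ratio was 1.23, 1.15 and 1.14 in shNC and 1.28, 1.13 and 1.54 in shTrem2. These groups overlapped, and the log2 difference was 0.15.

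As shares of the summed Fcγ receptor FPKM, Fcgr3 made up 15.7% ± 2.93 in shNC and 23.7% ± 2.43 in shTrem2, while Fcgr2b made up 38.8% ± 0.53 and 33.0% ± 1.93 (SD, n = 3). Neither overlapped between groups. Fcgr4 took 11.2% ± 0.76 and 7.90% ± 2.01, again without overlap, although its own level did not pass the test. Fcgr1 held about the same share in both, 34.4% ± 2.67 and 35.3% ± 6.26, and its shares overlapped.

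**Figure D3:**
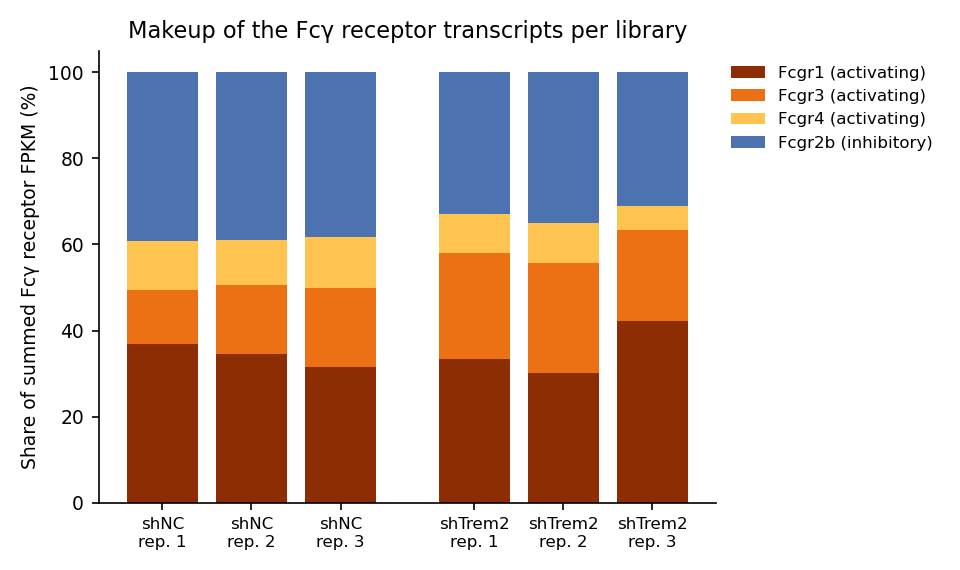
Share of each Fcγ receptor gene in the summed FPKM of Fcgr1, Fcgr3, Fcgr4 and Fcgr2b (y axis, %) in each of the 6 libraries. The inhibitory share (blue) is between 38.2% and 39.2% in shNC and between 31.1% and 35.0% in shTrem2, and the Fcgr3 share (orange) is larger in each shTrem2 library than in any shNC library.

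The forms of Fcgr2b were compared by the alternative exon printed above. The deposited transcript entries carry no identifiers, so each was assigned to an annotated transcript by rebuilding the gene's FPKM from the annotated lengths, which succeeded for Fcgr2b with an error of 0.186% against 2.52% for the next best assignment. Transcripts with the exon, Fcgr2b-201 and Fcgr2b-204, summed to 19.0, 16.7 and 18.2 CPM in shNC and to 17.7, 20.9 and 17.8 CPM in shTrem2. These values overlapped. Neither Fcgr2b-202 nor Fcgr2b-203 holds the whole exon. Fcgr2b-202 has 7 exons and 879 coding bases, and Fcgr2b-203 has 8 exons and 936 coding bases. Whether Fcgr2b-203 carries a part of the exon was not tested. Together these transcripts summed to 12.1, 17.2 and 13.3 CPM in shNC and to 28.2, 32.6 and 18.9 CPM in shTrem2. Here the groups did not overlap, and the mean went from 14.2 ± 2.66 to 26.5 ± 7.02 CPM (SD, n = 3). The share of coding Fcgr2b without the whole exon was therefore 38.9%, 50.8% and 42.3% in shNC against 61.4%, 60.9% and 51.4% in shTrem2. The closest libraries of the 2 groups were nearly equal. With 3 libraries against 3, an exact two-sided permutation test of this share cannot go below p = 0.1, and that smallest value is what non-overlapping groups give. The separation depends on placing Fcgr2b-203 with Fcgr2b-202. Fcgr2b-202 alone was at 11.1, 16.5 and 12.1 CPM in shNC and 25.8, 27.9 and 16.9 CPM in shTrem2. With it alone counted as b2, the share in shNC replicate 2 was above that in shTrem2 replicate 3, so the groups overlapped. Estimated counts of overlapping transcripts share reads, so the error of each form is larger than the spread shown.

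**Figure D4:**
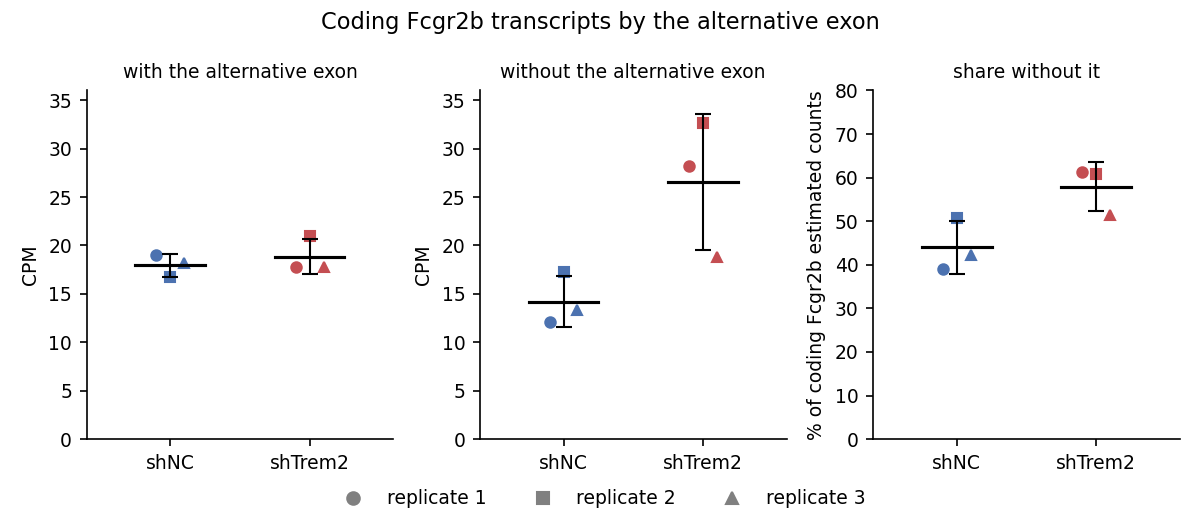
Summed CPM of the coding Fcgr2b transcripts with (left) and without (middle) the whole 141-base exon, and the share without it in % (right), in the 3 shNC (blue) and 3 shTrem2 (red) libraries, with mean and SD in black. The sum with the exon overlaps between groups, whereas the sum without the whole exon (Fcgr2b-202 and Fcgr2b-203) is higher in every shTrem2 library.

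The promoters of the activating receptors are shown because their genes differed in response while sharing a motif. PU.1, the myeloid transcription factor encoded by Spi1, binds the core GAGGAA, which occurs as printed or as its reverse complement TTCCTC in the 250 bases before the RefSeq start (GRCm38.p6) of Fcgr1, Fcgr3 and Fcgr4 and not of Fcer1g, Fcgr2b or Fcgrt. Of 27025 genes with a promoter, 25.9% hold it. The interferon-stimulated response element core, GAAA repeated after 2 bases, was in that window of Fcgr4 (3.46% of genes). The STAT6 spacing, TTC and GAA with 4 bases between them, was in none of the 6 windows (6.76% of genes). Both strands were searched, and a match is a string of letters, not a bound site. The stretches end at the start site or, for Fcgr4, at the first annotated exon base, and lie at chr3:96293970-96294089 (minus strand), chr1:171059404-171059523 (minus strand) and chr1:171018806-171018919 (plus strand). For Fcgr3 and Fcgr2b the RefSeq start lies inside the GENCODE gene span given above. Their windows are therefore not upstream of the outermost annotated start. Capitals mark the matches.
Fcgr1 promoter: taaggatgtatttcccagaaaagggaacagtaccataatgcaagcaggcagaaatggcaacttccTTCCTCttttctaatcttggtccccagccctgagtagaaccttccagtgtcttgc
Fcgr3 promoter: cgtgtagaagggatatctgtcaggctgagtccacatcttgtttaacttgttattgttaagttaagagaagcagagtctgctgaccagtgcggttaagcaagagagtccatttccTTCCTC
Fcgr4 promoter: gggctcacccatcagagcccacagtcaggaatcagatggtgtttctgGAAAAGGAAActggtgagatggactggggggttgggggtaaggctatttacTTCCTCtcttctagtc

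Of 16 genes listed as regulators of Fc receptor expression, all were tested, and 5 rose and 5 fell, or 62.5% called against 57.4% of all genes. Of them 6 were DEGs, 2 higher and 4 lower, or 37.5% against 21.8% of all genes. Jak2, a kinase of the interferon-γ receptor, went from 31.6 ± 2.11 to 13.1 ± 0.55 FPKM, a log2 fold change of -1.24 (edgeR, adjusted p = 1.40e-09). Tgfbr1, a receptor of TGF-β, rose by 1.13 (edgeR, adjusted p = 3.02e-07). Il4ra, the chain through which IL-4 signals, fell by 1.37 (edgeR, adjusted p = 3.24e-05), from 1.97 ± 0.87 to 0.683 ± 0.27 FPKM. The median over the list was 0.01 on the log2 scale.

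The other receptors for antibody were mostly silent in these cells. Of 13 listed genes, 2 passed the filter, and the others that the table holds had at most 6 counts in any library, including the mast cell receptor chains Fcer1a and Ms4a2, which had none. Trim21, a cytosolic IgG receptor that marks antibody-bound virus for degradation, rose from 2.09 ± 0.64 to 6.56 ± 0.73 FPKM (SD, n = 3), by 1.95 on the log2 scale (SE 0.15; edgeR, adjusted p = 1.86e-07). Fcrl1, an Fc receptor-like protein known from B cells, was at 18.1 ± 0.51 FPKM in shNC and 13.3 ± 0.84 FPKM in shTrem2 and fell by 0.43 (SE 0.076; edgeR, adjusted p = 2.63e-04), although the B cell marker Ms4a1 was at 0 in every library.

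Beside Fcer1g stand the other listed signalling adaptors. Tyrobp, the partner of Trem2, was at 500 ± 12.7 FPKM in shNC and 731 ± 51.7 FPKM in shTrem2 and rose by 0.57 (SE 0.049; edgeR, adjusted p = 4.20e-07). The ratio of Tyrobp to Fcer1g FPKM was 1.17 ± 0.035 in shNC and 1.42 ± 0.088 in shTrem2 (SD, n = 3), without overlap. Hcst was at 28.9 ± 0.70 and 19.5 ± 3.94 FPKM and did not pass the test (log2 fold change -0.52; edgeR, adjusted p = 0.0588), though it did in 6 of 17 alternatives. Receptors that use Fcer1g as their signalling chain moved in both directions. Of 11 listed, 4 were tested and all 4 were DEGs, against 21.8% of all genes. Pira2 and Pira12, activating receptors of the paired immunoglobulin-like family, rose by 3.92 and 2.99 on the log2 scale from at most 3 and 10 counts in any shNC library, where the size of a fitted change depends on the prior count. Genes of that family are near-identical copies, so reads may be shared among them. Clec4e (Mincle) and Clec4d, C-type lectins for mycobacterial glycolipids, fell by 1.08 and 0.93, from 68.9 ± 4.67 to 28.3 ± 2.96 FPKM and from 77.2 ± 3.96 to 38.6 ± 3.46 FPKM (SD, n = 3).

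Downstream of the activation motif, 23 of 24 listed kinases and adaptors were tested. Of these, 7 rose and 9 fell, or 69.6% called against 57.4% of all genes, and 2 were DEGs, or 8.70% against 21.8%. Src, one of the kinases that phosphorylate the motif, rose by 1.46 (edgeR, adjusted p = 9.41e-05) at a low level, 0.507 ± 0.17 against 1.09 ± 0.095 FPKM. Lat, a scaffold for phospholipase C known from T and mast cells, fell by 1.32 (edgeR, adjusted p = 0.0234) on 3 to 23 counts per library, and this call was lost in 5 of 16 alternatives. All 14 listed effectors and brakes of the inhibitory side were tested. Of these, 2 rose and 4 fell, or 42.9% called against 57.4% of all genes. The 1 DEG among them, or 7.14% against 21.8% of all genes, was Inppl1, which encodes the lipid phosphatase SHIP2. Inppl1 fell by 0.65 (edgeR, adjusted p = 1.39e-06), from 61.2 ± 5.45 to 37.8 ± 3.51 FPKM. Inpp5d, which encodes SHIP1, rose by 0.27 (edgeR, adjusted p = 1.84e-04), under the fold criterion for a DEG.

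The phagocytic cup is built by actin regulators and lipid enzymes, and 35 of 37 listed genes were tested. Of these, 19 rose and 8 fell, or 77.1% called against 57.4% of all genes. Of the tested genes 8 were DEGs, or 22.9% against 21.8% of all genes, with a list median of 0.18 on the log2 scale. Myo1f, a class I myosin of leukocytes, rose by 1.32 (edgeR, adjusted p = 1.62e-08), from 14.3 ± 2.54 to 35.3 ± 1.96 FPKM. Its relative Myo1e fell by 0.65 (edgeR, adjusted p = 1.50e-07). Cfl1 (cofilin), which severs actin filaments, rose by 0.83 (edgeR, adjusted p = 6.34e-08). Pld2, a phospholipase D, rose by 0.76 by counts (edgeR, adjusted p = 1.34e-04) but not with an offset for effective length or on FPKM, where its log2 change was between 0.29 and 0.34 and did not pass.

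Of the KEGG genes of Fc gamma R-mediated phagocytosis, as annotated in the deposited table and without the members, 77 of 88 were tested. Of these, 30 rose and 26 fell, or 72.7% called against 57.4% of all genes, and 14 were DEGs, or 18.2% against 21.8%. The median log2 fold change was 0.09, so the pathway moved in both directions. The fits to FPKM gave 7 and 9 DEGs in it. Its largest changes were in low genes: the phospholipases Pla2g4b (-1.80) and Pla2g4c (1.76), Lat and Asap2, an Arf GTPase-activating protein (-1.16), with mean levels under 1.5 FPKM. The call of Pla2g4b was lost with an offset for effective length and in both fits to FPKM.

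Around FcRn, 14 of 15 listed genes of IgG recycling were tested besides Fcgrt. Of these, 3 rose and 6 fell, or 64.3% called against 57.4% of all genes, and 3 were DEGs, or 21.4% against 21.8%. Ehd1, an ATPase of recycling endosomes, fell by 1.49 (edgeR, adjusted p = 1.41e-09), from 103 ± 5.58 to 34.5 ± 2.09 FPKM. Rab11fip1, an effector of the recycling GTPase Rab11, fell by 0.64 (edgeR, adjusted p = 8.17e-06), while Rab11b itself rose by 0.59 (edgeR, adjusted p = 9.39e-06). Of the 8 listed partners in antibody and complement responses, 4 rose and 3 fell, or 87.5% called against 57.4% of all genes. Of them 2 were DEGs, or 25% against 21.8% of all genes. Itgam, the α chain of complement receptor 3, fell by 0.78 (edgeR, adjusted p = 8.43e-09), from 108 ± 0.68 to 62.2 ± 2.16 FPKM.

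**Figure D5:**
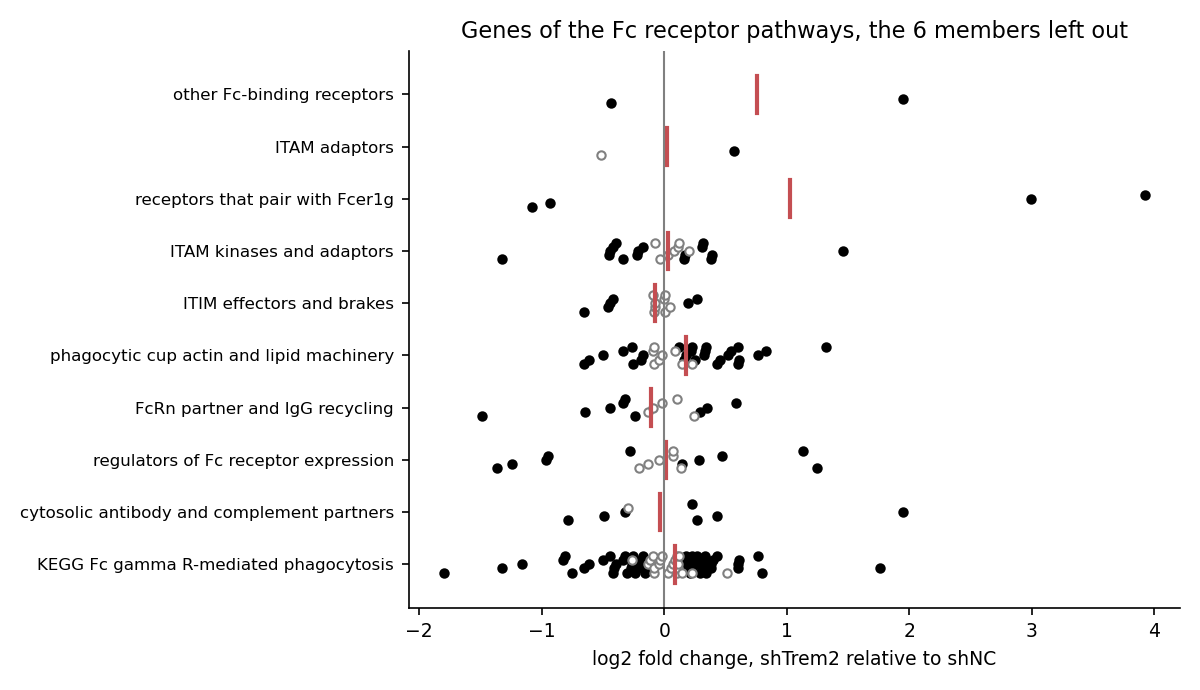
Log2 fold change in shTrem2 relative to shNC (x axis) of each tested gene of the 10 lists, without the 6 Fc receptor genes. Filled points passed an FDR under 0.05, open points did not, and red bars mark list medians, which lie between -0.11 and 0.18 except for 0.76 in the other Fc-binding receptors and 1.03 in the receptors that pair with Fcer1g.

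Genes near the Fc receptors were examined because 4 of the 6 sit together on chromosome 1. Within 500 kb of any of them, 102 genes were tested, and 66.7% were called against 57.4% of all genes. Of these, 32 were DEGs, 6 higher and 26 lower, or 31.4% against 21.8% of all genes. Around Fcgrt, which fell, 48 genes were tested and 16 were DEGs (33.3%), 1 higher and 15 lower. Around Fcgr1, which rose, 31 were tested and 11 were DEGs (35.5%), 3 higher and 8 lower. Around Fcgr2b, Fcgr3 and Fcgr4, 21 were tested and 4 were DEGs (19.0%), 1 higher and 3 lower, while Fcgr2b and Fcgr3 rose. Around Fcer1g, which rose, 22 were tested and 5 were DEGs (22.7%), 2 higher and 3 lower. This window overlaps that of Fcgr2b, Fcgr3 and Fcgr4, so the same genes are counted in both. The largest changes near Fcgrt were in Hrc (-4.15), a calcium-binding protein of the sarcoplasmic reticulum, and Dkkl1 (-4.03), both at 4 counts or fewer in each shTrem2 library, so that the size of the fit depends on the prior count, and in Il4i1, an IL-4-induced L-amino acid oxidase, which fell by 3.15 (SE 0.099; edgeR, adjusted p = 8.54e-11), from 44.9 ± 3.36 to 4.84 ± 1.01 FPKM. Near Fcgr1, Ankrd35 rose by 2.67 (edgeR, adjusted p = 0.00137) from at most 4 counts in any shNC library.

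The genes whose log2 CPM followed each receptor most closely over the 6 libraries were found among 9228 genes with a mean of at least 10 CPM. For Fcgr1 they were Uba2, Psip1 and Mvk, for Fcgr3 Sdha, I830077J02Rik and Dnajc7, and for Fcer1g Oxct1, Reep5 and Atp6v1b2, each with Pearson r above 0.99. With 6 libraries in 2 groups, such a correlation also holds the difference between groups, and 273 genes passed 0.99 for Fcgr1 and 309 for Fcer1g. For Fcgr4, whose groups overlapped, the closest were Lix1l, Grn and Rpl37a, and only the first passed 0.99. For Fcgr2b they were Fez2, Abcc5 and Yipf4, and for Fcgrt Osbpl8, Rps10 and Lipa. Among the receptors themselves, Fcgr1 and Fcer1g had r = 0.98, Fcgr3 and Fcgr2b r = 0.89, and Fcgr1 and Fcgr4 r = 0.22 over the same 6 libraries, which share the group difference and are given without p.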

How the data were processed

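Bulk RNA-seq of 6 RAW264.7 libraries was analysed, grouped by the shRNA named in the labels. According to the study's methods and the submitters' processing notes, reads from a stranded poly(A) protocol were trimmed with fastp, aligned with HISAT2 in an orientation-aware mode (GRCm39) and assembled with StringTie. The counting tool and the annotation release are not given in the sources used here. The authors deposited estimated counts per transcript, not scaled for depth or length (79.3% of the values above 0 were fractional). The authors also deposited FPKM per gene, and their group means were not used.

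Estimated counts were added per gene symbol and rounded. Entries with no symbol (0.908% to 1.12% of the counts per library) were left out. Differences were tested with edgeR 4.0.16 in R 4.3.3 (TMM, filterByExpr by group, glmQLFit and glmQLFTest, no covariates) with Benjamini-Hochberg adjustment over 13528 genes. The procedure was tested on simulated counts. DEGs had an FDR under 0.05 and a fold change over 1.5, as in the study. CPM used named counts, and log2 CPM a prior count of 2. No pair of replicates agreed within sampling noise (chi-square per degree of freedom of 2.54 or more).

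The members, the 9 pathway lists and the 7 marker lists were chosen with earlier results of these data known. Beside the members and Trem2, the text names up to 4 DEGs per list with the largest absolute log2 fold change and no overlap between groups, the other Fc-binding receptors and adaptors, up to 4 DEGs near the members and the 3 closest genes per member. A gene that this rule also selects is not reported here. B2m, Inpp5d and the markers named were singled out after their values were seen.

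Alternatives were DESeq2 1.42.0, limma-voom (limma 3.58.1), RLE or upper quartile scaling, library size alone, the filter dropped (1 count or more) or set to 10 counts in each library, a replicate block, the removal of each library, limma-trend on log2 FPKM with a pseudocount of 1 or of 0.1, an offset for effective length (count divided by FPKM), other fold thresholds, other forms of the receptor ratio and windows of 250 kb and 1000 kb. Transcript entries were assigned with GENCODE M21 (GRCm38); promoters came from RefSeq (GRCm38.p6), in which all 6 genes matched. Same-numbered replicates did not deviate together (correlations between -0.0044 and 0.0066), so the numbers were not treated as pairs.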

Additional observations from a re-analysis of the deposited data

How the results depend on the processing

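All 6 receptors kept their direction under the alternatives run on their fold changes, and 101 of 102 such values stayed on the same side of the FDR threshold. The exception was Fcgr4, whose log2 fold change ran from 0.053 to 0.48 as single libraries were left out and passed without shTrem2 replicate 3. The count of DEGs over all genes was 1339 with a fold change over 2 and 7763 with no fold threshold, against 2951. The log2 difference of the activating to inhibitory ratio, 0.36 as reported, was 0.49 with CPM, 0.27 with the geometric mean of the activating receptors and 0.15 without Fcgr3. With single receptors over Fcgr2b it was 0.26 for Fcgr1, 0.85 for Fcgr3 and -0.30 for Fcgr4. These ratios differ by their construction, and the cause of the differences beyond that was not tested. DEGs near the receptors numbered 18 within 250 kb and 46 within 1000 kb, against 32, as the windows hold fewer or more genes. With the replicate number as a block, 2911 DEGs were found, 3 receptors among them, Fcgr4 was at 0.20 (adjusted p = 0.412), and no receptor's call changed. Single libraries removed gave 2 to 3 receptors as DEGs. Among the other named genes, 503 of 520 values kept their call, 11 lost it (Lat, Pld2 and Pla2g4b) and 6 gained it (Hcst). Fcgr4 had 120 to 235 counts per library, and its call turned on 1 library. The 3 libraries per group limit every ratio and transcript share.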
